A study of Drosophila melanogaster with 3 samples.

Results

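The cytoplasmic ribosomal protein genes of Drosophila melanogaster were examined in 3 RNA-seq libraries of a single group. They were chosen by symbol alone: each row whose symbol begins with RpL (large subunit) or RpS (small subunit), read with case, which gave 92 of 15682 genes listed. The libraries came from skeletal muscle of 10-day-old males. In these flies Ptx1, a homeodomain transcription factor gene, was the target of RNA interference (RNAi) under MhcGal4, a driver built on the myosin heavy chain gene that is active in muscle. The labels give the genotype as Pitx RNAi, number the libraries as samples 1, 2 and 3, and do not say whether they are separate pools of flies, so the spread between them may be partly technical. Control libraries of another series were not analysed here, and no effect of the RNAi is therefore given.

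The cytoplasmic ribosome joins a large and a small subunit, each made of ribosomal RNA and a fixed set of proteins that are needed in equal amounts. The genes for these proteins are among the most strongly transcribed in growing and in resting cells, and in flies the loss of a single copy of many of them gives the Minute phenotype of slow development and short bristles. Several fly ribosomal proteins have a second gene, a paralog, and some of these paralogs, such as RpL22-like and RpS5b, are known for expression in the germline rather than in the body.

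Gene counts totalled 35988267 in library 1, 50794384 in library 2 and 52675322 in library 3. In every library 9579 genes reached 1 CPM, or 1 count per 1000000 gene counts, the level called detected here. Ptx1, the RNAi target, had 565, 625 and 640 counts, or 15.7, 12.3 and 12.1 CPM, in libraries 1, 2 and 3. With no control library these do not show a knockdown. All 16 muscle markers were detected, with a summed level of 22532 to 25802 CPM, and so were all 5 gut markers (7970 to 9258 CPM), all 4 fat body markers (3080 to 3337 CPM) and all 5 neuron and glia markers (624 to 931 CPM). Transcripts typical of other tissues were thus present in libraries labelled skeletal muscle, and the cells that each ribosomal protein transcript came from cannot be told apart. In such bulk RNA, fewer cells of a type and less RNA per cell cannot be told apart either.

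Ribosomal protein transcripts made up a large and fairly even block of these transcriptomes. The 92 genes together held 7.63%, 6.14% and 6.62% of all gene counts in libraries 1, 2 and 3, a mean of 6.79 ± 0.762% (SD, n = 3). The exact 95% intervals of these shares were 7.62% to 7.64%, 6.13% to 6.14% and 6.61% to 6.62%, which cover counting error only. Detected members numbered 84, and 76 members stood among the 500 genes with the highest mean CPM, with 37 among the first 200 and none among the first 10. Counts were not divided by length, because no transcript lengths of the files' annotation were at hand, so levels of different genes are compared on the count scale only and short transcripts are understated.

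Large subunit genes held 62.5%, 62.5% and 62.4% of the members' counts in libraries 1, 2 and 3. That share hardly moved between libraries, although the members' share of the transcriptome did. The 54 large subunit genes included 51 detected ones, with a median mean level of 804 CPM over the detected genes. Of the 38 small subunit genes 33 were detected, with a median of 795 CPM.

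**Figure D1:**
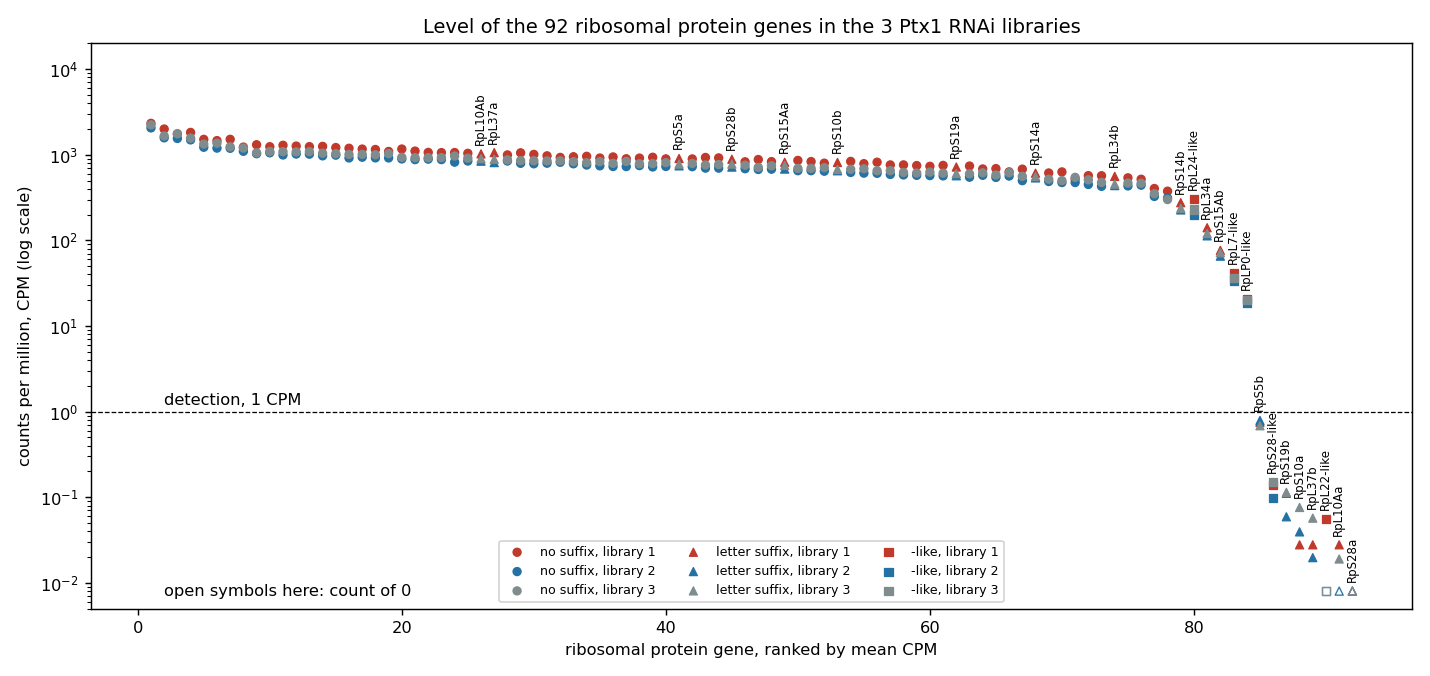
Level of each of the 92 ribosomal protein genes in libraries 1, 2 and 3, in CPM on a log axis, with genes ranked by mean level; circles are symbols with no suffix, triangles symbols with a letter suffix and squares symbols ending in -like. The 69 genes with no suffix lie between 330 and 2208 CPM on average, whereas genes with a suffix are spread over the whole range down to a count of 0.

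All 69 genes with no suffix were detected in every library, and their mean levels ran from 330 CPM for RpL22 to 2208 CPM for RpL5, with a median of 821 CPM. RpL5, whose protein carries the 5S ribosomal RNA into the large subunit, stood at 2329, 2059 and 2235 CPM in libraries 1, 2 and 3. RpL3, whose protein lies next to the catalytic centre of peptide bond formation, stood at 1999, 1576 and 1657 CPM. These were the members with the highest counts, and library 1 was the highest library for both.

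RpS3A, a protein of the small subunit, stood at 1752, 1551 and 1757 CPM and thus differed from most members in being highest in library 3, by a small margin. The remaining members of the first 10 were all large subunit genes. RpL7A averaged 1627 ± 175 CPM, the stalk gene RpLP1 1356 ± 146 CPM, RpL10, whose protein is added late and is needed for the subunits to join, 1341 ± 135 CPM, and RpL4, whose protein lines the exit tunnel of the nascent chain, 1314 ± 175 CPM. RpL15 averaged 1175 ± 68.8 CPM, RpL23A, at the rim of the exit tunnel, 1131 ± 155 CPM and the stalk base gene RpLP0 1129 ± 99.1 CPM. The first 10 members held 21.7 ± 0.419% of the members' counts.

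The stalk proteins bind translation factors, and P1 and P2 are the exception to equal amounts, since several copies of them sit on each ribosome. RpLP1 stood at 1513, 1224 and 1333 CPM and RpLP2 at 1065, 889 and 926 CPM in libraries 1, 2 and 3. The base of the stalk, RpLP0, stood at 1242, 1055 and 1092 CPM. On the count scale the 3 stalk genes fell within the range of the other genes with no suffix, with library 1 highest and library 2 lowest for each.

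RpS27A and RpL40 are made as fusions to ubiquitin and so also supply that protein tag. RpS27A stood at 916, 743 and 832 CPM and RpL40 at 787, 610.2 and 686 CPM. RpS27A lay near the median of 821 CPM of the genes with no suffix, and RpL40 below it. RpS6, the classical substrate of S6 kinase downstream of TOR, stood at 1009.7, 784 and 852 CPM, and RpS12, which flies need for the competitive loss of cells with a ribosomal protein mutation, at 613, 487 and 518 CPM.

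The notion of letter-suffix symbols as low-expressed paralogs held for only some of them. Of 18 such genes 12 were detected, and 9 of these were the more counted member of their family and stood within the range of genes with no suffix. They were RpL10Ab at 923 ± 93.3 CPM, RpL37a at 919 ± 128 CPM, RpS5a at 809 ± 85.0 CPM, RpS28b at 795 ± 85.6 CPM, RpS15Aa at 749.6 ± 68.4 CPM, RpS10b at 713 ± 87.8 CPM, RpS19a at 630.5 ± 78.8 CPM, RpS14a at 568 ± 37.8 CPM and RpL34b at 483 ± 66.2 CPM. RpL37A, written with a capital letter and counted here as having no suffix, is a different gene from RpL37a and averaged 510.1 ± 60.2 CPM. Whether genes are used in every tissue cannot be read from libraries of a single tissue. The letter-suffix genes held 10.4 ± 0.0569% of the members' counts and the 5 genes ending in -like 0.440 ± 0.0353%.

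**Figure D2:**
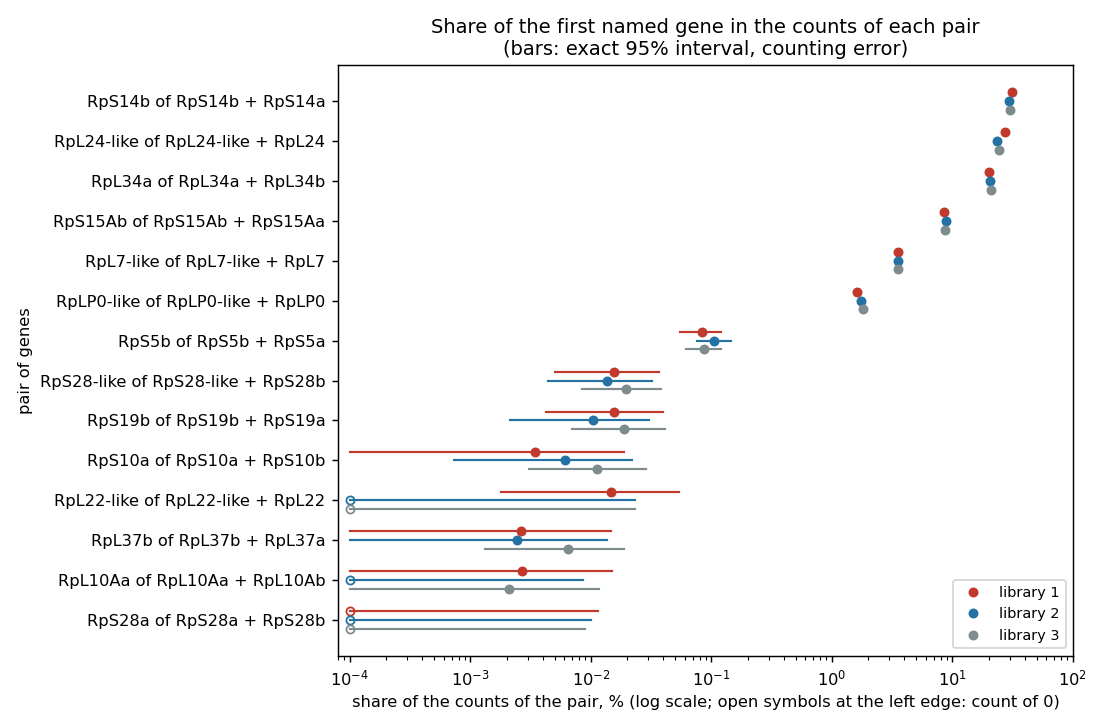
Share of the first named gene in the summed counts of each pair of genes with a common base name, in percent on a log axis, for libraries 1, 2 and 3; bars are exact 95% intervals for counting error, and open symbols mark a count of 0. Shares run from about 30% for RpS14b to a count of 0 for RpS28a.

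Grouping symbols by base name gave 13 families with 14 less counted paralogs. In 3 families of letter-suffix genes both partners were detected. RpS14a and RpS14b, neighbouring genes in the RefSeq annotation of Release 6 that are known to encode identical proteins, stood at 610.1, 537 and 558 CPM and at 276, 227 and 237 CPM in libraries 1, 2 and 3. RpS14b thus held 31.1%, 29.7% and 29.8% of the pair's counts (exact 95% intervals 30.6% to 31.6%, 29.3% to 30.2% and 29.4% to 30.3%). The files list reads without a unique alignment apart from the genes, at 8.37%, 9.85% and 9.64% of all reads listed. Reads that fit both of these near-identical copies equally would fall there and count for neither gene. The levels of both may therefore be understated, and the split is uncertain for that reason.

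RpL34b and RpL34a both encode a large subunit protein and stood at 559, 436 and 454 CPM and at 141, 113 and 120.4 CPM. RpL34a held 20.1%, 20.6% and 20.9% of the pair's counts, with intervals of 19.6% to 20.6%, 20.1% to 21.1% and 20.5% to 21.4% that overlapped. RpS15Ab stood at 76.5, 65.4 and 71.8 CPM beside RpS15Aa at 817, 680.4 and 751 CPM. Its share of the pair was 8.56%, 8.77% and 8.73%, with intervals that overlapped between all libraries.

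In 3 families the less counted gene ends in -like and was detected. RpL24-like, RpL7-like and RpLP0-like are relatives of yeast Rlp24, Rlp7 and Mrt4, which are not part of the mature ribosome but act while the large subunit is assembled. RpL24-like stood at 303, 199 and 229 CPM, against 798, 643 and 706 CPM for RpL24. It held 27.5% of the pair's counts in library 1, 23.6% in library 2 and 24.5% in library 3, with intervals of 27.1% to 27.9%, 23.2% to 24.0% and 24.1% to 24.9% that did not overlap. Such intervals cover counting error only, not the spread between libraries. That of RpS14b in library 1 likewise lay above those of libraries 2 and 3.

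RpL7-like stood at 41.9, 33.7 and 36.6 CPM and held 3.51%, 3.53% and 3.53% of its pair with RpL7. RpLP0-like stood at 20.5, 18.8 and 20.3 CPM and held 1.63%, 1.75% and 1.82% of its pair with RpLP0. RpLP0-like was the detected member with the lowest level and lay just above the threshold in rank, with no member between it and RpS5b. RpL24-like was therefore counted at several times the level of the other -like genes, on a scale not corrected for length.

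The remaining 8 members were below 1 CPM in every library, and each has a well counted partner. RpS5b had 27, 40 and 36 counts, or 0.750, 0.787 and 0.683 CPM, against 904, 742 and 779.6 CPM for RpS5a. Over the libraries together RpS5a had 1081 times the counts of RpS5b, with an exact 95% counting interval of 891 to 1324. RpS5b was the highest of these genes and the only one of them that entered the test described below.

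RpS28-like had 5, 5 and 8 counts, RpS19b 4, 3 and 6, RpS10a 1, 2 and 4, and RpL37b 1, 1 and 3. RpL22-like had 2 counts in library 1 and none in libraries 2 and 3, and RpL10Aa had 1, 0 and 1. RpS28a had no count in any library, and with 3 counts as the limit that a count of 0 allows, its level could reach 0.0834 CPM in library 1, 0.0591 CPM in library 2 and 0.0570 CPM in library 3. Its partner RpS28b, with 31924, 36482 and 41013 counts, was at least 36473-fold higher, with the limit of 3 counts taken over the group.

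Counting intervals were wide for these genes. RpS10b had 13983 times the counts of RpS10a (6786 to 34779), RpS19a 6659 times those of RpS19b (3894 to 12506), and RpL37a 25193 times those of RpL37b (10795 to 77591). RpL22 had 22618 times the counts of RpL22-like (6261 to 186774) and RpL10Ab 63568 times those of RpL10Aa (17597 to 524907). RpS28b had 6079 times the counts of RpS28-like (3846 to 10257). These ratios are of counts, not corrected for length. For a handful of reads, misassignment from the partner cannot be told apart from expression.

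Male germline markers were low in the same libraries. Without bol, the other 14 of the 15 markers summed to 5.06, 3.23 and 3.89 CPM, and twe was the only detected one of them, at 1.48 ± 0.114 CPM. The sperm protein gene Mst87F stood at 0.778, 0.0984 and 0.228 CPM and the germline helicase gene vas at 0.417, 0.433 and 0.683 CPM. The marker bol was far higher, at 106, 178 and 144 CPM, which sets it apart from the rest of that list. The 5 markers aly, sa, Mst84Da, ProtA and ProtB had a count of 0 in at least 1 library.

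Members did not stand at equal levels in the libraries. For 81 of 84 detected members the highest CPM was that of library 1 and the lowest that of library 2, an order shared by 36.0% of the 9579 detected genes. All 84 detected members were higher in library 1 than in library 2, where 52.8% of all detected genes were. The exceptions to the common order were RpS3A and RpL38, highest in library 3, and RpL22, lowest in library 3. This order describes 3 libraries, and members that share a library are not replicates of each other.

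The sizes of these differences were modest. The ratio of library 1 to library 2 had a median of 1.24 over the detected members, with a range of 1.09 to 1.52. The median over all detected genes was 1.01, in which rises and falls offset each other. The ratio of highest to lowest library had a median of 1.24 over the detected members and 1.16 over all detected genes. At a mean of 100 CPM or more these medians were 1.25 for 81 members and 1.15 for 1919 genes, members included. From library 2, library 3 differed by a median ratio of 1.08 over the members, beside 1.01 over all detected genes, and 83 of 84 members were higher in library 3, where 55.5% of all detected genes were. In deviations from the gene's own mean on the log2(CPM + 0.5) scale, the members' medians were 0.18, −0.14 and −0.04 in libraries 1, 2 and 3, with medians of 0.00, −0.01 and 0.01 over all detected genes. Without library 2 the members' median in library 1 was 0.11, and without library 1 that in library 2 was −0.05.

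**Figure D3:**
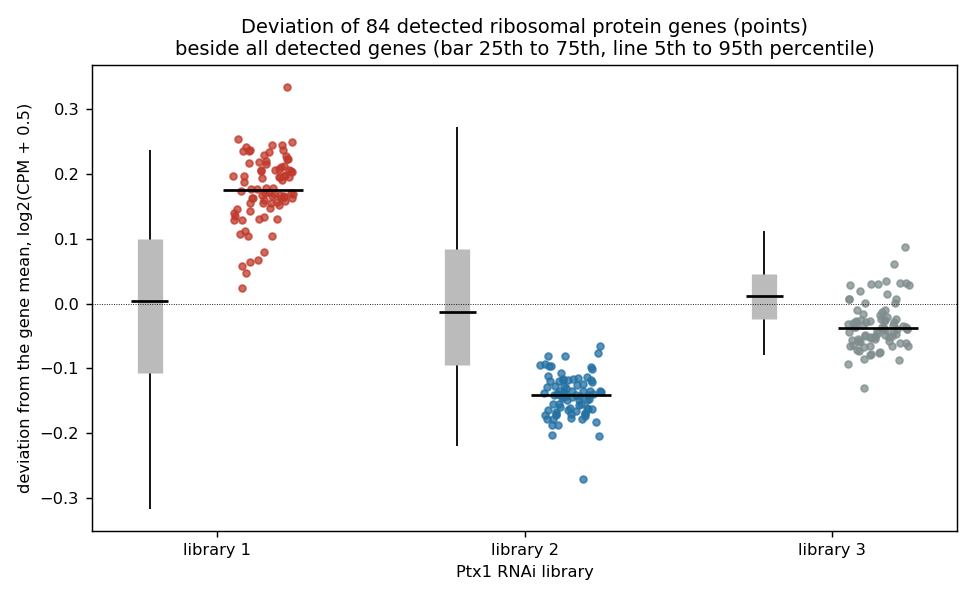
Deviation of each detected gene from its own mean over the libraries, on the log2(CPM + 0.5) scale, for libraries 1, 2 and 3; points are the 84 detected ribosomal protein genes with their median as a line, and the grey bar and black line are the 25th to 75th and 5th to 95th percentiles of all 9579 detected genes. The members' medians are 0.18, −0.14 and −0.04, and all points lie above 0 in library 1 and below 0 in library 2.

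The members moved largely as a block. In libraries 1, 2 and 3 the SD of the deviations over the members was 0.05, 0.03 and 0.04, beside 0.22, 0.19 and 0.07 over all detected genes, which include many with few counts. After the members' own median was taken off, 78 of 84 members (92.9%) lay within 0.1 of it in every library, beside 41.8% of all detected genes around theirs. Of the 84 members 81 had a mean of 100 CPM or more, and for these measures no genes of like level were set beside them. Large and small subunit genes had nearly the same medians, at 0.18 and 0.17 in library 1 and at −0.14 and −0.14 in library 2. The mix of members still differed between libraries by more than counting error. Its chi-square per degree of freedom was 43.4 for libraries 1 and 2, 60.5 for 1 and 3 and 18.1 for 2 and 3. Over all genes these values were 86.1, 35.6 and 19.7. Across the 84 members the mean level and the ratio of library 1 to library 2 had a Spearman rho of −0.12, a description over genes that share these libraries.

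The 6 members outside that limit differed in direction. RpL24-like lay 0.16 above the members' median in library 1 and 0.13 below it in library 2. RpL38, RpLP0-like, RpS3A, RpL39 and RpL15 lay below the median in library 1, by 0.15, 0.13, 0.12, 0.11 and 0.11, and above it in libraries 2 and 3. RpL38, which in mouse is known for the translation of homeobox mRNAs, stood at 521, 474 and 545 CPM. These members were picked for their values, so no test belongs to them.

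Among the 84 detected members, those with the widest ratio of highest to lowest library were RpL24-like at 1.52, RpS20 at 1.36, with 679, 498 and 559.9 CPM, and RpL31 at 1.35, with 739, 547 and 598 CPM. The narrowest were RpLP0-like at 1.09, RpL39 at 1.12, with 631, 564 and 617 CPM, and RpL15 at 1.12, with 1229, 1098 and 1198 CPM. RpL39 overlaps RpL12 in the RefSeq annotation of Release 6, and the counts of both are uncertain there. RpL32, which is rp49, the usual reference transcript of fly quantitative PCR, stood at 837, 622 and 677 CPM, with a ratio of 1.35.

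**Figure D4:**
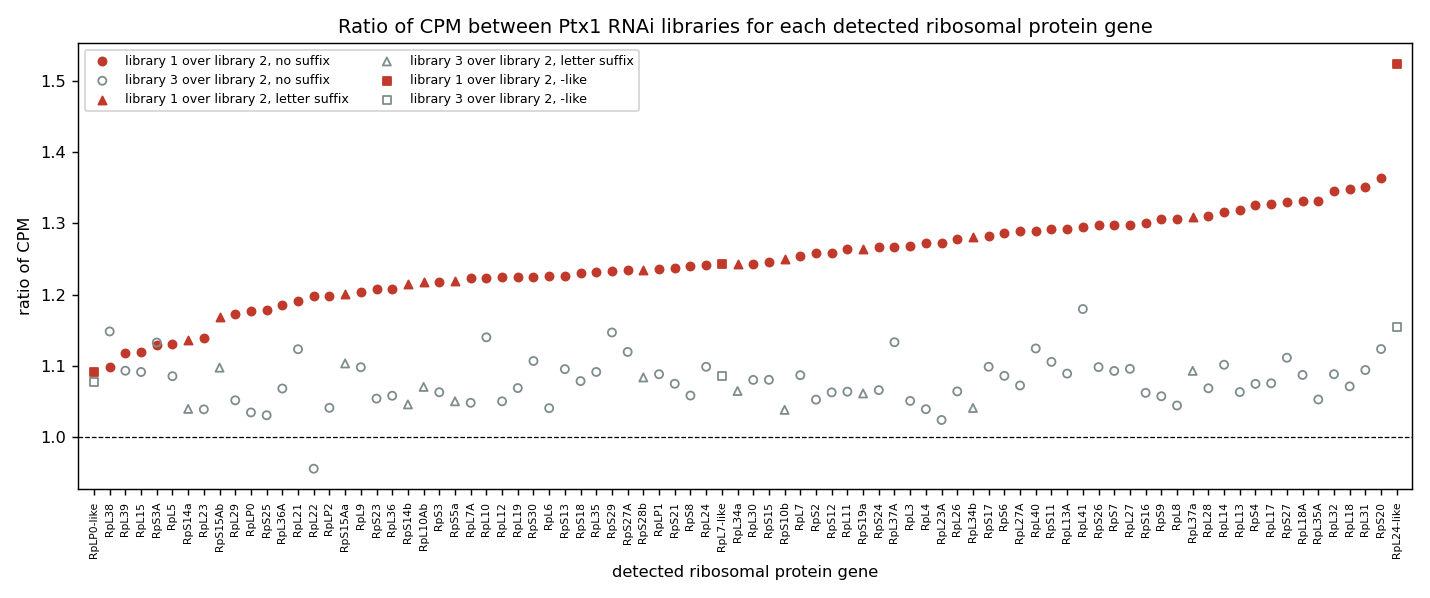
Ratio of CPM between libraries for each of the 84 detected ribosomal protein genes, ordered by the ratio of library 1 to library 2 (filled) and with the ratio of library 3 to library 2 as open symbols; circles, triangles and squares are symbols with no suffix, with a letter suffix and ending in -like. All filled symbols lie between 1.09 and 1.52, and RpL22 is the only gene with an open symbol below 1.

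No member was called variable between libraries. In an intercept-only edgeR fit over 10522 genes, whose goodness-of-fit test compares a gene's spread over the libraries with that shared by genes of its abundance, 0 of 85 tested members passed an adjusted p of 0.05, beside 2.05% of all genes tested. At an unadjusted p below 0.05 the count of members was also 0, beside 567 of the 10522 genes tested. With DESeq2 size factors it was 0 as well, beside 581 of 10522 genes. The smallest unadjusted p was 0.0668, for RpL24-like. The 7 members not tested were those with the fewest counts, RpS28-like, RpS19b, RpS10a, RpL37b, RpL22-like, RpL10Aa and RpS28a.

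That test weighs each gene by itself against a spread that genes of its abundance share. Here this was a median dispersion of 0.017 over the members, or a coefficient of variation of 13.0%. Members were 62 of the 300 genes with the highest mean CPM, so they help set the spread they are tested against. A shift that members share can thus raise that spread. The members' own median coefficients of variation were 11.8% for genes with no suffix and 10.6% and 11.1% for detected letter-suffix and -like genes. In simulated libraries of 10522 genes, genes raised 4-fold in library 1 were called in 99 of 100 cases and genes raised 2-fold in 34 of 100. The raised genes were drawn at random from genes of many levels, so these rates are not those for the highly counted members. The widest difference among the detected members was 1.52-fold, a size below those simulated, so the lack of calls does not show that members were equal between libraries. The p-values measure the spread between these samples only.

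Proteins that sit on or next to the ribosome but carry other symbols stood at like levels and in the same order. Of the 6 symbols listed, sop and oho23B are older names of members (RpS2 and RpS21), and the other 4 all had the members' order, beside 36.0% of all detected genes. The small subunit gene sta averaged 1091 ± 169 CPM and Rack1, a scaffold on the small subunit, 1067 ± 140 CPM. Nacalpha and bic, the subunits of the complex that meets nascent chains, averaged 388 ± 41.7 and 371 ± 32.0 CPM.

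Genes of ribosome assembly were counted at lower levels, and the medians of their deviations were smaller. All 25 listed genes were detected and none was called variable, with mean levels of 7.96 to 715 CPM. The highest were Non1 at 776, 675 and 694 CPM, CG4364 at 159 ± 4.95 CPM and ns2 at 64.5 ± 2.04 CPM, and the nucleolar methyltransferase gene Fib stood at 15.4, 12.2 and 12.4 CPM. The list's median deviations were 0.04, −0.03 and −0.003 in libraries 1, 2 and 3, and 14 of 25 genes had the members' order, beside 36.0% of all detected genes.

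Regulators of ribosomal protein genes and of their translation mostly had the opposite order. For 10 of 14 such genes library 2 was the highest and library 1 the lowest, beside 32.5% of all detected genes. The members' order was seen in 1 gene, and none was called variable. Like the other lists, this one was chosen with earlier results of these data known, so the counts only describe these libraries. The median deviations of the list were −0.15, 0.13 and 0.02. The highest were crc, a stress transcription factor gene, at 1118, 1119 and 1151 CPM, Xrp1, which mediates the response to loss of a ribosomal protein gene, at 905, 1003 and 947 CPM, and Thor, the translation inhibitor 4E-BP, at 465, 464 and 472 CPM.

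Among the same regulators, the growth factor gene dm, which encodes Myc, stood at 41.5, 72.4 and 57.4 CPM, and Tor, the kinase that couples nutrients to ribosome production, at 59.0, 73.3 and 66.4 CPM. Larp1, encoded by larp and known for binding ribosomal protein mRNAs, stood at 310, 413 and 363 CPM. Trf2, whose protein serves the initiators of ribosomal protein promoters, stood at 57.8, 70.0 and 64.1 CPM. While dm, Tor, larp and Trf2 all had the opposite order, CG9797 (M1BP), at 26.51, 21.97 and 22.29 CPM, had the members' order. CG6272 (Irbp18), at 31.4, 29.9 and 31.8 CPM, was highest in library 3 and lowest in library 2. Dref had the opposite order by a small margin, at 35.2, 36.2 and 36.1 CPM.

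**Figure D5:**
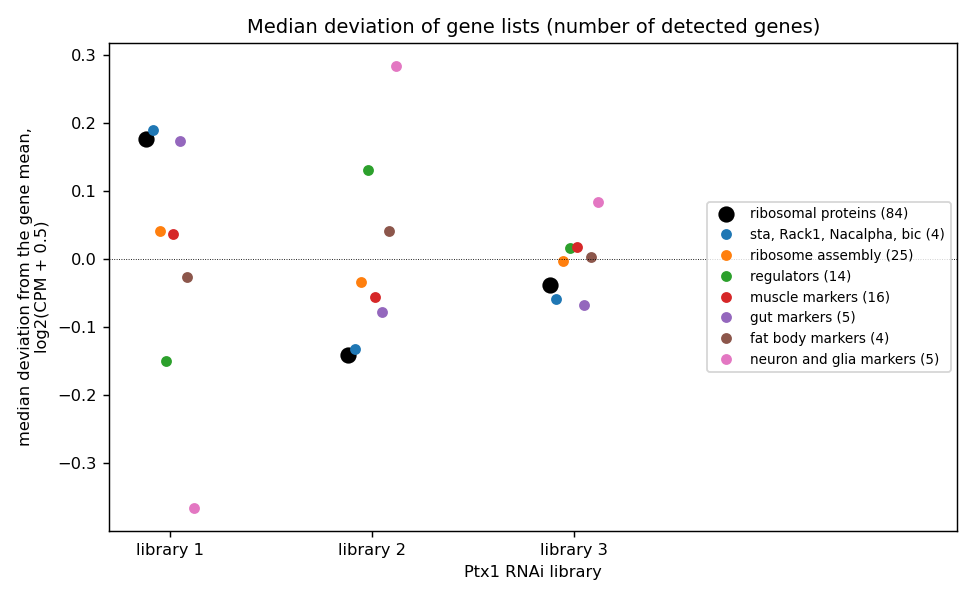
Median deviation from the gene mean over the libraries, on the log2(CPM + 0.5) scale, of the 84 detected ribosomal protein genes and of 7 other gene lists in libraries 1, 2 and 3; the number of detected genes is in parentheses. Ribosomal proteins lie at 0.18, −0.14 and −0.04, whereas the regulators lie at −0.15, 0.13 and 0.02.

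Other features also differed between the libraries. The gut markers had median deviations of 0.17, −0.08 and −0.07 in libraries 1, 2 and 3, but only 2 of 5, alphaTry and Mal-A1, had the members' order, and Amy-p was highest in library 2. The neuron and glia markers lay at −0.37, 0.28 and 0.08, and all 5 had the opposite order, whereas the muscle markers lay at 0.04, −0.06 and 0.02. Of the 16 muscle markers 8 had the members' order and 3 the opposite order, beside 36.0% and 32.5% of all detected genes. The giant sarcomere genes bt and sls, among those 3, stood at 2544, 4452 and 3566 CPM and at 2036, 3594 and 2798 CPM. Both were highest where the members were lowest. Reads that could belong to more than 1 gene formed 2.74%, 2.35% and 2.44% of all reads listed, and reads without a unique alignment 8.37%, 9.85% and 9.64%. Library 1 also had the fewest gene counts. The part of each of these in the members' order was not tested.

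Position offers a further feature of the members. In the RefSeq annotation of Release 6, 28 of 92 members hold at least 1 small nucleolar RNA gene within their span, 74 in all, with 14 in RpS5a. Small nucleolar RNAs guide the modification of ribosomal RNA and are commonly processed from introns of such host genes. The span of 25 members overlaps another protein-coding gene, among them RpL41, which lies inside NaCP60E, and RpS10a, which lies inside tau. No share over all annotated genes was set beside these counts, so they do not mark the members as unusual. RpL41, whose product is a very short basic peptide, stood at 1062, 820 and 967 CPM. Use of strand in the counting was not given in the sources used here, and the counts of overlapping genes are uncertain.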

How the data were processed

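RNA was measured in 3 libraries of polyadenylated RNA prepared with a stranded TruSeq kit, per the labels' protocols. The authors deposited raw counts for each gene, without normalization. CASAVA 1.7, BWA, STAR and HTSeq are named, per the submitters' processing notes, without roles. Those notes name mm9, a mouse build, while the rows carry fly symbols, so the build and annotation are not known and no coordinates are given. Names came from the files and from the RefSeq table of Release 6 plus ISO1 MT: 90 of 92 members matched by symbol and 2 (RpL37a and RpL37b) by synonym. Sequences were not used here.

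The 5 rows that name no gene, 22.0%, 25.1% and 24.8% of all listed counts in libraries 1, 2 and 3, entered neither totals nor tests. A further 6 columns hold samples of another series and were used in no step. CPM (counts per 1000000) was computed over the total of all gene rows, and deviations used a pseudocount of 0.5 CPM. Variability was tested with edgeR 4.0.16 in R 4.3.3 (intercept only, TMM, filterByExpr, trended dispersion, goodness-of-fit chi-square on 2 degrees of freedom, Benjamini-Hochberg over all genes tested, threshold 0.05) and tested on simulated data. DESeq2 1.42.0 gave the alternative size factors. Intervals are exact Clopper-Pearson at 95% (SciPy 1.17.1) and, like the limit of 3 counts, cover counting error only.

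Members and gene lists were chosen with earlier results of these data known. Named were the 10 most and 10 least counted members, all paralog families, stalk and ubiquitin fusion genes, the 3 widest and 3 narrowest ranges between libraries, members next to the detection threshold, and the 3 most counted genes of the ribosome-related lists. Outside that rule, RpS6, RpS12, RpL32, RpL38, RpL41, Fib, bt, sls and the gut and male germline markers were named after their values were seen. The same holds for bic, dm, Tor, larp, Trf2, CG9797, CG6272 and Dref. The planned ratios per coding length were replaced by ratios of counts, since no coding lengths were at hand.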

Additional observations from a re-analysis of the deposited data

How the results depend on the processing

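The members' share of counts averaged 6.79% of gene counts and 5.17% when all listed rows formed the total, as a larger total requires; it ran from 6.38% to 7.12% with 1 library left out. The letter-suffix share of 10.4% became 10.8% with the -like genes added, by construction, and 10.3% to 10.4% with 1 library left out. With the 10 most abundant genes left out of the totals the members' share was 7.25%. The median deviation was 0.11 to 0.16 in library 1 and −0.16 to −0.05 in library 2 with 1 other library left out, and 0.18 and 0.17 in library 1 with TMM and DESeq2 scaling. The value of −0.05 in library 2, the smallest in size, was that without library 1. Under either of these scalings, chosen for this count after the data had been examined, 82 members had the common order. Detected members numbered 84, or 85 at 0.5 CPM. Variable members numbered 0 under each setting run, while all genes called numbered 216, or 262 with no filter on low counts, 244 with a common dispersion, 213 with DESeq2 size factors and 108, 89 and 124 without libraries 1, 2 and 3. Ratios per coding length were not run. No paired analysis was possible because the libraries form a single group. Depth limits the 8 members below 1 CPM most.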
